A study of Mus musculus with 40 samples.

Results

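CSB mice were compared with WT mice on a ketogenic diet (KD) in RNA from the cerebellum. Members were the libraries whose titles put them in these 2 groups, 9 of the 40 in the series. The CSB KD group held 5 libraries, numbered 13, 18, 19, 43 and 44, and the WT KD group 4, numbered 7, 12, 25 and 28. All mice were male and labelled C57BL6, and every library was made from total RNA depleted of ribosomal RNA. The labels give no age, no allele behind the name CSB, no length of the diet and no batch. They also do not say whether each library came from a separate animal, so p-values measure the spread between libraries. Libraries of 4 other groups entered as a second look at the same genotype: 6 CSB SD and 4 WT SD on a standard diet (SD), and 5 DKO KD and 6 INDY KD. INDY is another name of the Slc13a5 gene, and the labels do not spell out DKO or the alleles. Slc13a5 read 0 to 0.934 in DKO KD and 0 to 0.824 in INDY KD.

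CSB is the protein of the gene Ercc6, a SWI/SNF-type ATPase that binds RNA polymerase II stalled at DNA damage and recruits the repair proteins of transcription-coupled nucleotide excision repair. In people its loss causes Cockayne syndrome, a disorder of growth and nervous system degeneration in which the cerebellum and its myelin are affected. A ketogenic diet is high in fat and low in carbohydrate, so the liver releases ketone bodies that the brain takes up and oxidises in place of part of its glucose. Microglia are the resident phagocytes of the brain, and in damaged tissue they take on a disease-associated state with lysosomal, lipid and phagocytic genes.

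Values are estimated read counts per gene that the authors normalised, so differences between libraries in total depth are not known from them. Sums, given to 6 digits, ran from 24185900 to 32247200 in CSB KD and from 25254400 to 28912500 in WT KD. Genes above 0 numbered 25988 to 27161 in CSB KD and 26547 to 27406 in WT KD. Mitochondrial genes held 8.07% to 14.2% of the sum in CSB KD and 7.66% to 10.7% in WT KD. Library CSB KD 13 had the highest sum and the highest mitochondrial share of the 9. Pearson correlations of log2 values ran from 0.967 to 0.983 between CSB KD libraries and from 0.949 to 0.974 between WT KD libraries.

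Genes were tested with limma on log2(value + 1), adjusting p by Benjamini-Hochberg over the 21367 genes with a value of 10 or more in 4 or more libraries, and a gene was called at an adjusted p under 0.05. Ercc6, the gene that CSB names, checks the labels. It read 695, 641, 382, 596 and 634 in CSB KD, against 878, 766 and 899 in WT KD 7, 12 and 28 and 633 in the library labelled WT KD 25. Listed values follow library number throughout, so the 5 CSB KD values belong to 13, 18, 19, 43 and 44. Every CSB KD value lay below the 3 WT KD values, and the library labelled WT KD 25 lay inside the CSB KD range. The log2 difference was -0.44 (SE 0.15, adjusted p = 0.585) with all 9 libraries and -0.55 (SE 0.16, adjusted p = 0.352) without that library, and neither passed. Slc13a5, the plasma membrane citrate transporter, was present in both groups, with 134 ± 24.2 in CSB KD (SD, n = 5) and 113 ± 34.1 in WT KD (n = 4). The library labelled WT KD 25 lay inside the CSB KD range for Ercc6, and for Ncoa4 and Gm6768 below. Each comparison and gene list is therefore given with and without it. Differences of single list members are without it unless stated. Purkinje and granule cell markers were present in all 9 libraries: Calb1, a calcium-binding protein of Purkinje cells, read 9653 to 16592 in CSB KD and 5063 to 13518 in WT KD.

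Ncoa4, the receptor that delivers ferritin to autophagosomes, fell in CSB KD, and Gm6768, annotated as a processed pseudogene, rose. Ncoa4 lies on chromosome 14, 32159865 to 32179855 in GRCm38, close to Ercc6, while Gm6768 lies on chromosome 12, 119260978 to 119262855. The 2 transcripts are nearly the same sequence, with 1876 of 1878 bases equal over the whole of Gm6768, so each value alone is uncertain. The bases around both differences are shown because reads from the rest of that stretch cannot tell the genes apart. Positions count from 1 at the first base of the Ncoa4 start codon, transcripts are those of GENCODE M21 on GRCm38, and the capital marks the base that differs.
Ncoa4 around A1312G: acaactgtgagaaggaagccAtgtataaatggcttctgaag
Gm6768 around A1312G: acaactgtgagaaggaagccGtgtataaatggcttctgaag
Ncoa4 around G1533A: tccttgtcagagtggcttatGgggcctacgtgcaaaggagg
Gm6768 around G1533A: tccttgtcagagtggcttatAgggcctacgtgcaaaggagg
Read in the frame of Ncoa4, the first change turns methionine into valine at codon 438 and the second turns methionine into isoleucine at codon 511.

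Gm6768 read 1245, 1032, 1185, 1129 and 941 in CSB KD, against 0, 0 and 0 in WT KD 7, 12 and 28 and 1041 in the library labelled WT KD 25. The pseudogene was thus listed at 0 in 3 WT KD libraries, while the fourth had a value inside the CSB KD range. In the other groups it read 985.6 to 1207 in CSB SD and 1074 to 1217 in DKO KD, and was listed at 0 in every WT SD and INDY KD library. It was the single gene called with all 9 libraries (limma, adjusted p = 0.000127). Ncoa4 read 2709, 2349.8, 2883, 2484 and 2459.9 in CSB KD, against 3603, 4093 and 3769 in WT KD 7, 12 and 28 and 2362 in the library labelled WT KD 25. CSB KD lay below the 3 WT KD libraries without overlap, and the fourth again lay inside the CSB KD range. Without it the log2 difference of Ncoa4 was -0.57 (SE 0.09, adjusted p = 0.00153), and with it -0.40 (SE 0.10, adjusted p = 0.495). Added together, the pair averaged 3683 ± 315 in CSB KD (SD, n = 5) and 3717 ± 292 in WT KD (n = 4). The log2 difference of the sum was -0.01 (SE 0.08, exact two-sided permutation p = 0.825), or -0.06 (exact permutation p = 0.464) without the library labelled WT KD 25.

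Of 21367 genes tested with all 9 libraries, 1 was called, which is 0.00468%. At an unadjusted p under 0.05 there were 1759 genes (8.23%), 830 higher (3.88%) and 929 lower (4.35%) in CSB KD. Without the library labelled WT KD 25, 10 genes were called (0.0468%), of which 3 rose (0.014%) and 7 fell (0.0328%), and 1533 (7.17%) had an unadjusted p under 0.05, 677 higher (3.17%) and 856 lower (4.01%). The 3 that rose were Gm6768, Itgax and Sh3bp5. The 7 that fell were Ncoa4, Ldb3, Galnt15, Duxbl2, Gm49012, Ly6c2 and Mmp9. In all 10 the groups did not overlap, against 2.51% of all genes with CSB KD above the 3 WT KD libraries and 2.34% with CSB KD below them. The library labelled WT KD 25 was nearer to the CSB KD mean than to the mean of the other 3 WT KD libraries in 10 of the 10, against 44.9% of all genes, and it lay inside the CSB KD range in 8. Since its removal is what called 9 of these genes, that count describes them and supports nothing. The same holds for the lack of overlap, because the 10 genes were called on these same values.

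The count depended on single libraries and on the settings of the fit. With all 9 it was 10 without WT KD 25, 9 without WT KD 28 and 1 without each of the others. Once the library labelled WT KD 25 was out, it was 116 without WT KD 28, and 3, 4, 4, 5 and 6 without WT KD 7, CSB KD 13, CSB KD 44, CSB KD 43 and WT KD 12. Only the calls of Gm6768 and Ncoa4 held whichever further library was left out, and that of Ncoa4 ended when the 2 groups were fitted alone, where only Gm6768 was called. With a weight per library estimated from the data, 1906 genes were called, 986 higher and 920 lower, and with no filter on low values 65, of which 9 were higher and 56 lower. With all 9 libraries the weights gave 90 calls, 58 higher and 32 lower, and no filter gave 4, of which 1 was higher and 3 lower.

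**Figure D1:**
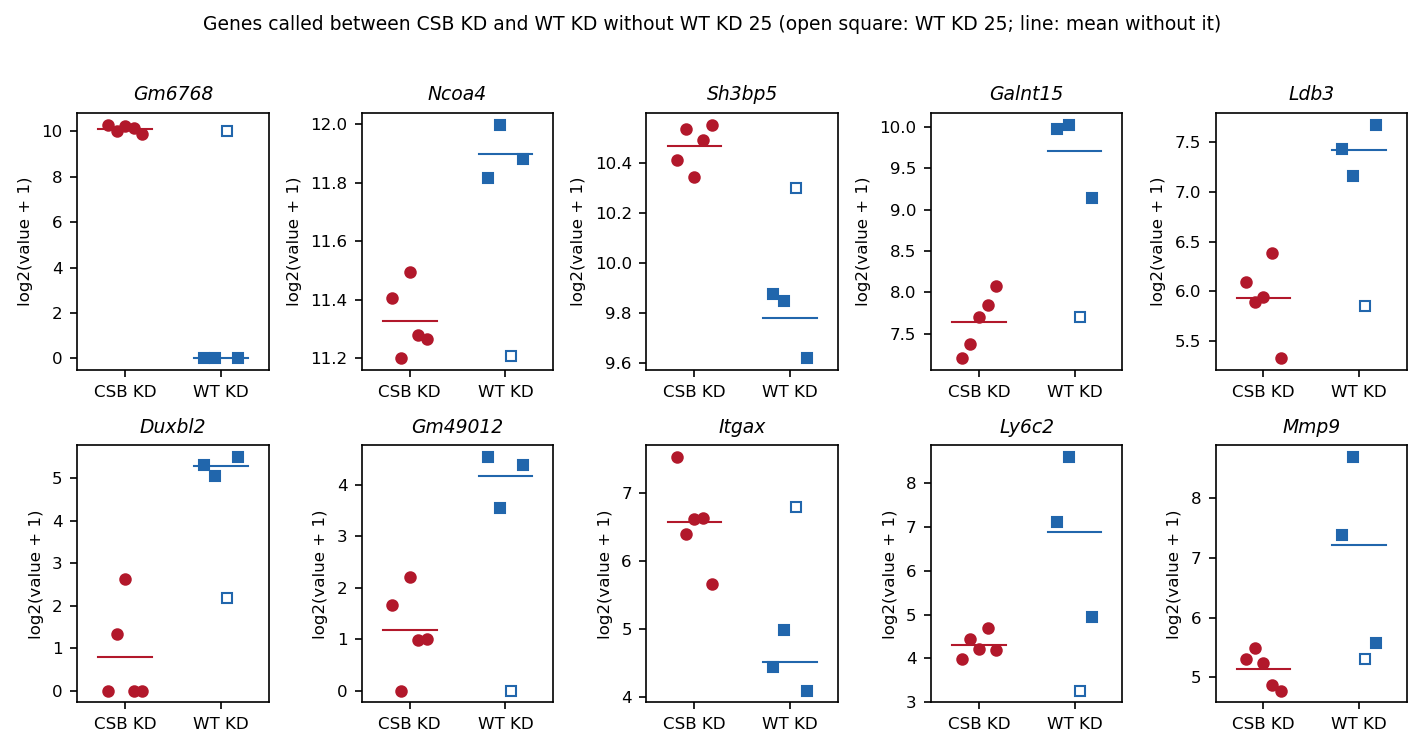
Values of the 10 genes called without the library labelled WT KD 25, as log2(value + 1) on the vertical axis, for 5 CSB KD (circles, left) and 4 WT KD libraries (squares, right). The open square is the library labelled WT KD 25 and each line is the mean of the filled points. In every panel the filled squares lie apart from the circles, and the open square lies among or near the circles.

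Of the 10 called genes, 6 lie on chromosome 14 within 15 Mb of Ercc6 (32513521 to 32580990). Of those, 5 fell and 1 rose. They were 6 of the 246 genes tested in that window, against 4 of the 21121 tested elsewhere and 0.0468% of all genes. Ncoa4 is among the 6 and its near-identical Gm6768 among the 4. The sum of this pair differed by only -0.06 (exact permutation p = 0.464) without the library labelled WT KD 25. Galnt15, an enzyme that starts mucin-type O-glycosylation (32028989 to 32062197), read 146, 164, 207, 229.9 and 268 in CSB KD, against 1006, 1043 and 564 in WT KD 7, 12 and 28 and 208 in the library labelled WT KD 25. CSB KD lay below all 3, a 4.22-fold lower level on the log2(value + 1) scale (log2 -2.08, SE 0.42, adjusted p = 0.0443, and -1.57 with all 9). Ldb3, a PDZ-LIM protein of the muscle Z-disc (34526603 to 34588682), read 67.3, 58.5, 60.5, 82.4 and 39 in CSB KD, against 172, 142 and 204 in WT KD 7, 12 and 28 and 56.8 in the library labelled WT KD 25. Its difference was -1.50 (SE 0.27, adjusted p = 0.0166), and -1.10 with all 9. Sh3bp5, an activator of the vesicle GTPase Rab11 (31359880 to 31436078), went the other way, with 1361, 1480.5, 1299, 1435 and 1499 in CSB KD, against 940.1, 921 and 786 in WT KD 7, 12 and 28 and 1259.5 in the library labelled WT KD 25. It was 1.61-fold higher (log2 0.68, SE 0.13, adjusted p = 0.0307, and 0.55 with all 9), and the CSB KD values lay above all 4 WT KD values.

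The other 2 genes near Ercc6 had low values. Duxbl2, a double homeobox gene (26118349 to 26129763), read 0, 1.51, 5.23, 0 and 0 in CSB KD, against 38.8, 31.9 and 44.2 in WT KD 7, 12 and 28 and 3.5 in the library labelled WT KD 25. It was listed at 0 in 3 CSB KD libraries, and its difference was -4.49 (SE 0.84, adjusted p = 0.0195), and -3.71 with all 9. Its transcript equals that of Duxbl3 in all 2312 bases, so the sum of Duxbl1, Duxbl2 and Duxbl3 was also taken. That sum, formed after the values were seen, was 1.59 to 10.3 in CSB KD, against 31.9 to 47.9 in WT KD 7, 12 and 28 and 9.31 in the library labelled WT KD 25. Its log2 difference was -2.77 (SE 0.43, exact two-sided permutation p = 0.0179, the smallest that 5 against 3 libraries allow), and -2.27 (exact permutation p = 0.0238) with all 9. The sum of Tmem254a, Tmem254b and Tmem254c, a second set of like genes near Ercc6 picked after its values were seen, was 81.8 to 129 in CSB KD, against 199 to 282 in WT KD 7, 12 and 28 and 93.2 in the library labelled WT KD 25. It differed by -1.33 (SE 0.22, exact permutation p = 0.0179) without that library and by -0.98 (SE 0.40, exact permutation p = 0.0317) with it. Gm49012 (34591092 to 34605700), an antisense RNA, read 2.16, 0, 3.62, 0.978 and 1.01 in CSB KD, against 22.2, 10.7 and 20 in WT KD 7, 12 and 28 and 0 in the library labelled WT KD 25. Part of Gm49012 overlaps Opn4 (34590618 to 34600142), a gene on the other strand. Reads from shared bases cannot be told apart unless counting used strand, which the sources used here do not give. Overlap of their exons was not examined. Opn4 went the other way, with 10.9 to 31.5 in CSB KD, against 3.24 to 8.98 in WT KD 7, 12 and 28. It read 21.7 in the library labelled WT KD 25, and differed by 1.82 without that library (limma, adjusted p = 0.504). Whether reads were assigned between the 2 genes was not tested. The difference of Gm49012 was -2.99 (SE 0.52, adjusted p = 0.0119), and -1.95 with all 9.

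Left-out libraries ended most of these calls. The call of Galnt15 ended without any 1 of CSB KD 13, 18, 19, 43 or 44 or WT KD 7 or 12 (adjusted p = 0.0577 to 0.328). That of Sh3bp5 ended without any 1 of CSB KD 13, 18, 43 or 44 or WT KD 7, 12 or 28 (adjusted p = 0.0562 to 0.135). Duxbl2 lost it without CSB KD 13, 43 or 44 or WT KD 7 or 12 (adjusted p = 0.0562 to 0.135). Ldb3 lost it without CSB KD 44 (adjusted p = 0.0577) or WT KD 7 (adjusted p = 0.135), and Gm49012 without WT KD 7 (adjusted p = 0.135). None of their differences changed sign.

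The window held 246 tested genes. Without the library labelled WT KD 25, 13 were higher and 14 lower at an unadjusted p under 0.05, together 11% of the window, against 7.13% of the 21121 tested genes elsewhere. CSB KD lay wholly above the 3 WT KD libraries in 9 genes and wholly below them in 14, together 9.35%, against 4.8% elsewhere. The median difference was 0.00 in the window and 0.01 elsewhere, so differences ran in both directions. With all 9 libraries 24 genes (9.76%) had such a p, against 8.21% elsewhere. In 134 of the 246 genes (54.5%) the library labelled WT KD 25 was nearer to CSB KD than to the other WT KD libraries, against 44.8% elsewhere. In these groups the CSB genotype and any stretch of chromosome inherited with Ercc6 cannot be told apart.

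**Figure D2:**
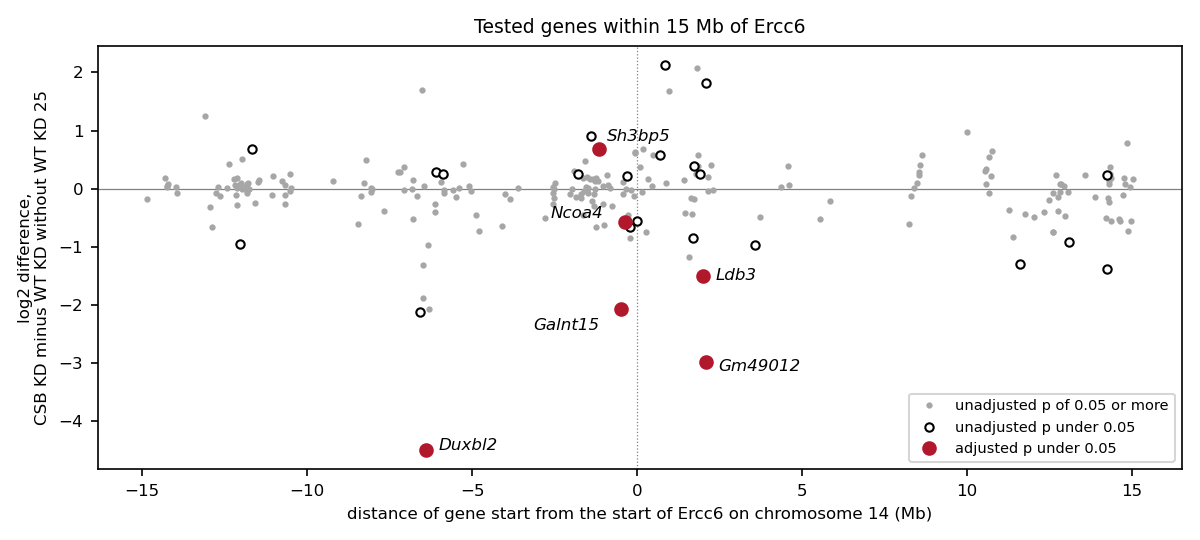
Log2 difference, CSB KD minus WT KD without the library labelled WT KD 25 (vertical axis), for the 246 tested genes by distance of gene start from that of Ercc6 in Mb (horizontal axis). Filled red points are the 6 called genes, open points those with an unadjusted p under 0.05, and grey points the rest. The called genes lie on both sides of Ercc6, 5 below 0 and Sh3bp5 above.

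Itgax, the integrin CD11c of disease-associated microglia and dendritic cells, rose 4.16-fold once the library labelled WT KD 25 was left out. It read 183, 82.8, 96.5, 98.3 and 49.8 in CSB KD, against 20.8, 30.6 and 16 in WT KD 7, 12 and 28 and 109.5 in the library labelled WT KD 25. The lowest CSB KD value stood above the highest of the 3, while the fourth WT KD library stood second among all 9. The log2 difference was 2.06 (SE 0.38, adjusted p = 0.0195) without it and 1.49 (SE 0.41, adjusted p = 0.539) with it. The call ended without CSB KD 13 (adjusted p = 0.0684), CSB KD 43 (adjusted p = 0.0613) or WT KD 7 (adjusted p = 0.144). Part of its transcript matches Itgad, with 606 of 614 bases equal, so reads from that stretch may be shared.

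Other genes of the disease-associated state had positive differences without passing the test. Cst7, an inhibitor of lysosomal cathepsins, read 75.9, 36.2, 34.4, 51.9 and 32.3 in CSB KD, against 8.08, 18.5 and 11.5 in WT KD 7, 12 and 28 and 52.8 in the library labelled WT KD 25 (log2 1.77, SE 0.44, adjusted p = 0.195, and 1.26 with all 9). Gpnmb, a lysosomal glycoprotein of phagocytes, read 383, 196, 184, 229 and 144 in CSB KD, against 64.3, 80.9 and 61.6 in WT KD 7, 12 and 28 and 261 in the library labelled WT KD 25 (log2 1.64, SE 0.37, adjusted p = 0.106, and 1.16 with all 9). In both, CSB KD lay above the 3 WT KD libraries without overlap, and the library labelled WT KD 25 lay inside the CSB KD range. The beta-glucan receptor Clec7a differed by 1.44 (SE 0.38), the chemokine Ccl4 by 1.63 (SE 0.55), the lipid receptor Trem2 by 0.84 (SE 0.23) and the lysosomal membrane protein Cd68 by 0.83 (SE 0.22), with adjusted p of 0.253, 0.56, 0.35 and 0.253. The members Apoe, Ctsb and Fth1 had smaller differences: 0.24 for the apolipoprotein gene Apoe, 0.14 for the lysosomal protease Ctsb and 0.25 for ferritin heavy chain Fth1. Spp1, the secreted phosphoprotein osteopontin, differed by 0.10 (-0.01 with all 9) and lipoprotein lipase Lpl by -0.38. Trem2 read 497, 222, 329, 236 and 214 in CSB KD, against 138, 131 and 217 in WT KD 7, 12 and 28 and 327 in the library labelled WT KD 25, with CSB KD 44 just below WT KD 28.

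In the list of 29 activated microglia genes, 25 differences were above 0 without the library labelled WT KD 25, against 51.4% of all genes, with a median of 0.33 and 0.01 over all genes. Called genes numbered 1 (Itgax), those higher at an unadjusted p under 0.05 numbered 12, against 3.17% of all genes, and none was lower at such a p. CSB KD lay above the 3 WT KD libraries without overlap in 9, against 2.51% of all genes. With all 9 libraries the median was 0.24, 9 had such a p, 0 were called and 1 did not overlap, against 1.45% of all genes with CSB KD above and 1.36% with CSB KD below all 4 WT KD libraries. The mean log2 level of the list was 9.15, 8.53, 8.52, 8.52 and 8.42 in CSB KD, against 8.12, 8.35 and 7.84 in WT KD 7, 12 and 28 and 8.70 in the library labelled WT KD 25. CSB KD 13 was the highest of the 9 and the library labelled WT KD 25 the second. The list was chosen with earlier results of these data known, so these counts describe it and are no independent support. B2m and Fth1 also stand in other lists used here. In bulk tissue, a larger number of cells of a type and more RNA per cell cannot be told apart.

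**Figure D3:**
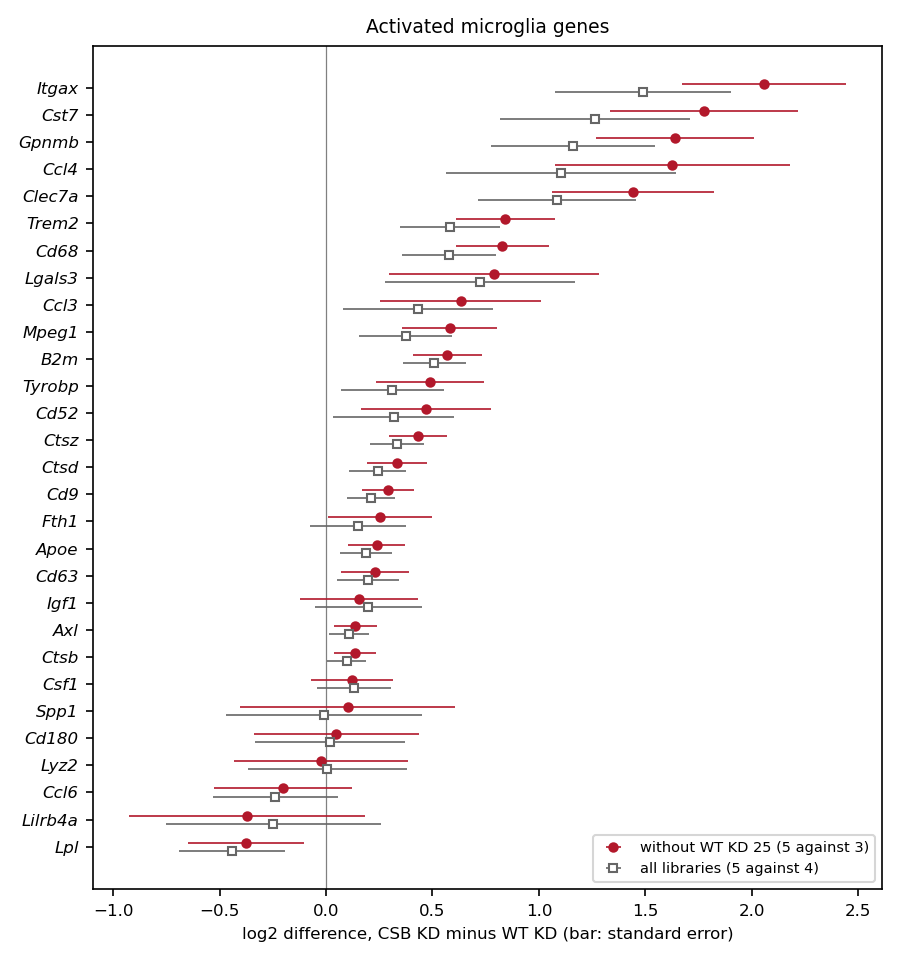
Log2 difference, CSB KD minus WT KD, of the 29 activated microglia genes (horizontal axis), without the library labelled WT KD 25 (filled, 5 against 3 libraries) and with it (open squares, 5 against 4). Bars are standard errors of the fit. All but 4 genes lie above 0 in the filled series, from Itgax at 2.06 down to Lpl at -0.38.

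Markers that microglia carry at rest lay on both sides of 0. The 18 homeostatic genes had a median of 0.03 without the library labelled WT KD 25 and -0.07 with it, and 10 of 18 and 8 of 18 were above 0. Csf1r, the receptor of colony-stimulating factor 1, differed by 0.05 (SE 0.21) and by -0.14 with all 9, and Ptprc, the leukocyte antigen CD45, by -0.52 (SE 0.29). Their list level was 8.74, 8.34, 8.47, 8.33 and 8.31 in CSB KD, against 8.41, 8.51 and 8.32 in WT KD 7, 12 and 28 and 8.72 in the library labelled WT KD 25, with the groups overlapping. Of 18 complement genes 7 were above 0 without the library labelled WT KD 25 (median -0.10), and 4 were higher at an unadjusted p under 0.05, against 3.17% of all genes. With all 9 libraries 10 were above 0 (median 0.01) and 0 had such a p, so the sign of the median turned. C4b, a complement component made by glia, read 2024, 2036, 1748, 1751 and 1487 in CSB KD, against 1242, 1087 and 924 in WT KD 7, 12 and 28 and 1864 in the library labelled WT KD 25 (log2 0.74, SE 0.34, adjusted p = 0.682, and 0.54 with all 9). The 6 Fc gamma receptor genes had a median of 0.11 (0.06 with all 9), from -0.30 for Fcgr4 to 0.18 for Fcgr1, with 0 at an unadjusted p under 0.05.

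Most genes of antigen presentation by MHC class I had differences above 0, with 0 called, while class II genes lay on both sides of 0. Of 13 class I and immunoproteasome genes, 12 differences were above 0 (median 0.13) without the library labelled WT KD 25 and 11 (median 0.18) with it. B2m, the class I light chain, read 2935, 2015, 2091, 2189.7 and 2282 in CSB KD, against 1579, 1466 and 1571 in WT KD 7, 12 and 28 and 1819 in the library labelled WT KD 25, so that every CSB KD value exceeded every WT KD value (log2 0.57, SE 0.16, adjusted p = 0.355, and 0.51 with all 9). The class I heavy chain gene H2-D1 differed by 0.42 (SE 0.19) and Nlrc5, the class I transactivator, by -0.45 (SE 0.43). Over 8 class II genes the median was -0.14 without the library labelled WT KD 25 (3 above 0) and 0.08 with it (4 above 0), and 0 were called. Cd74, the invariant chain, differed by 0.15 (SE 0.45) and Ctss, a protease that trims it, by 0.65 (SE 0.20, adjusted p = 0.479).

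Most interferon-stimulated genes also had differences above 0, and here the library labelled WT KD 25 stood with the other WT KD libraries. Of 26 genes 23 were above 0 with all 9 libraries (median 0.37, against 51% of all genes above 0) and 24 without it (median 0.29). At an unadjusted p under 0.05, 9 were higher with it and 1 without it, and 0 were called in either setting. Ifit3, an antiviral tetratricopeptide protein, read 711, 577, 457, 763 and 912 in CSB KD, against 448, 504 and 315 in WT KD 7, 12 and 28 and 305 in the library labelled WT KD 25. CSB KD 19 lay inside the WT KD range, and the log2 difference was 0.79 (SE 0.34, adjusted p = 0.588) with all 9. Usp18, a protease that removes ISG15, differed by 0.77 (SE 0.38), Ifi27l2a, an interferon-induced membrane protein, by 0.79 (SE 0.37), and the transcription factor Stat2 by 0.31. The list level was 7.25, 7.44, 7.22, 7.26 and 7.78 in CSB KD, against 7.22, 7.19 and 6.74 in WT KD 7, 12 and 28 and 6.91 in the library labelled WT KD 25, with CSB KD 44 highest. All 5 CSB KD libraries stood above all 4 WT KD libraries in this level, the closest being CSB KD 19 (7.223) and WT KD 7 (7.219). Such narrow separation was not particular to this list. The lowest CSB KD and highest WT KD levels were 8.049 and 8.041 for MHC class I genes. For fatty acid oxidation and PPAR target genes they were 8.659 and 8.648.

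Among 20 reactive astrocyte genes, 13 were above 0 without the library labelled WT KD 25 (median 0.20) and 14 with it (median 0.33), and 0 were called. Gfap, the filament protein of astrocytes, read 7011, 6011, 5264, 6238 and 5447 in CSB KD, against 4019, 3019 and 1863 in WT KD 7, 12 and 28 and 5222 in the library labelled WT KD 25. The CSB KD values lay above the 3 WT KD values, with the fourth near the lowest of CSB KD (log2 1.08, SE 0.40, adjusted p = 0.589, and 0.85 with all 9). Vimentin (Vim), another filament protein, differed by 0.64 (SE 0.24), the protease inhibitor Serpina3n by 1.35 (SE 0.55) and the water channel Aqp4 by 0.42 (SE 0.20). The list also holds Lcn2, a siderophore-binding protein of astrocytes and granulocytes, which went the other way, with 12, 14.1, 10.9, 10.8 and 11.1 in CSB KD, against 182, 884 and 24.1 in WT KD 7, 12 and 28 and 10.5 in the library labelled WT KD 25. Its log2 difference of -3.65 (SE 0.75) had an adjusted p of 0.0504 and did not pass, and was -2.70 with all 9.

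The remaining called genes, Ly6c2 and Mmp9, fell in CSB KD, and both were high in WT KD 7 and 12. Ly6c2, a surface antigen of monocytes and granulocytes, read 14.9, 20.9, 17.6, 24.9 and 17.2 in CSB KD, against 138, 388 and 30 in WT KD 7, 12 and 28 and 8.6 in the library labelled WT KD 25 (log2 -2.59, SE 0.49, adjusted p = 0.0197, and -1.68 with all 9). Mmp9, a metalloproteinase stored in neutrophil granules, read 38.4, 43.7, 36.9, 28.2 and 26.4 in CSB KD, against 165, 410.3 and 46.9 in WT KD 7, 12 and 28 and 38.8 in the library labelled WT KD 25 (log2 -2.08, SE 0.41, adjusted p = 0.0296, and -1.60 with all 9). WT KD 28 stood just above the CSB KD range in both, and the library labelled WT KD 25 below it for Ly6c2 and inside it for Mmp9. The transcript of Ly6c2 equals that of Ly6c1, an endothelial antigen, in 802 of 822 bases. The sum of both differed by -0.40 (SE 0.21, exact two-sided permutation p = 0.0536) without the library labelled WT KD 25 and by -0.26 (exact permutation p = 0.254) with it. The call of Ly6c2 ended without CSB KD 13 (adjusted p = 0.0562), CSB KD 44 (adjusted p = 0.0577), WT KD 7 (adjusted p = 0.182) or WT KD 12 (log2 -1.73, adjusted p = 0.411). That of Mmp9 ended without CSB KD 13, 19, 43 or 44 (adjusted p = 0.0504 to 0.088), WT KD 7 (adjusted p = 0.232) or WT KD 12 (log2 -1.34, adjusted p = 0.414). Both calls also ended when the 2 groups were fitted alone. The SE came from the fit shared by all 8 groups, while the spread lay mostly in WT KD. Ly6c2 averaged 141 ± 174 in WT KD and 19.1 ± 3.91 in CSB KD, and Mmp9 165 ± 173 in WT KD and 34.7 ± 7.27 in CSB KD.

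Genes of granulocytes were high in the same 2 WT KD libraries, among them S100a8 and S100a9, which encode calcium-binding proteins of neutrophil cytosol. S100a9 read 17.8, 46.8, 29.9, 28.5 and 59.4 in CSB KD, against 869.96, 3935 and 20.1 in WT KD 7, 12 and 28 and 9.36 in the library labelled WT KD 25, and S100a8 read 11.1, 35, 28.9, 28.5 and 43.4 in CSB KD, against 625, 2984 and 6.42 in WT KD 7, 12 and 28 and 3.19 in the library labelled WT KD 25. Camp, the antimicrobial peptide of neutrophil granules, read 1.1, 1.88, 0, 2.93 and 7 in CSB KD, against 139, 630.03 and 0 in WT KD 7, 12 and 28 and 0 in the library labelled WT KD 25. Mpo, the myeloperoxidase of neutrophils and their precursors, did not pass the filter and read 0 to 5.21 in CSB KD, against 212 and 435 in WT KD 7 and 12, 0 in WT KD 28 and 0 in the library labelled WT KD 25. Ly6g, a neutrophil antigen, read 0 in all 5 CSB KD libraries, against 6.07 and 46.8 in WT KD 7 and 12 and 0 in both other WT KD libraries. Without the library labelled WT KD 25, S100a9 differed by -3.59 (SE 0.94, adjusted p = 0.253), S100a8 by -3.10 (SE 1.12), Ngp, neutrophilic granule protein, by -3.64 (SE 1.49) and Camp by -3.96 (SE 1.13, adjusted p = 0.355). With all 9 these were -2.26, -1.64, -1.95 and -2.59.

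In the list of T, B and granulocyte genes, 10 of 15 passed the filter and none was above 0 in either setting. The median was -1.86 without the library labelled WT KD 25 and -1.52 with it, and 7 and 4 were lower at an unadjusted p under 0.05, against 4.01% and 4.35% of all genes. The mean log2 level of the list was 3.58, 3.97, 3.74, 3.88 and 4.22 in CSB KD, against 6.46, 7.60 and 3.57 in WT KD 7, 12 and 28 and 3.45 in the library labelled WT KD 25. WT KD 7 and 12 thus stood apart from the other 7 libraries. Of the 15 members, 1 to 4 were at 0 per CSB KD library and 0 to 4 per WT KD library. T cell markers were low throughout: Cd3e read 0 to 1.46 in CSB KD and 0 to 3.09 in WT KD. WT KD 7 and 12 were the highest 2 of the 9 libraries in 6 of the 10 tested genes, in 3 of the 7 genes that fell (Ly6c2, Mmp9 and Galnt15) and in 4.25% of all genes, a count made after the values were seen. The 7 genes that fell were called for higher values in WT KD 7, 12 and 28. The share over all genes is therefore no measure for the 3 of 7, which only describes them.

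Erythroid genes showed the same 2 libraries. All 7 tested genes were below 0 (median -0.62 without the library labelled WT KD 25 and -0.44 with it), and WT KD 7 and 12 were the highest 2 libraries in 6 of the 7. Hbb-bs, an adult beta globin, read 2334, 4542, 5075, 2862 and 2714 in CSB KD, against 5259, 10472 and 2457 in WT KD 7, 12 and 28 and 3116 in the library labelled WT KD 25. Slc4a1, the anion exchanger of red cells, differed by -1.84 (SE 0.81) and Alas2, the erythroid enzyme that starts haem synthesis, by -0.57 (SE 0.54), and 0 of the list were called. The list level was 7.62, 8.58, 8.79, 8.10 and 8.13 in CSB KD, against 9.65, 10.78 and 7.15 in WT KD 7, 12 and 28 and 7.92 in the library labelled WT KD 25. When the T, B and granulocyte level was added to the fit as a covariate, an alternative chosen after seeing the data, 5 genes were called without the library labelled WT KD 25, of which Gm6768, Itgax and Gm49012 were among the 10. The other 7 calls ended. Ly6c2 then differed by -1.55 (adjusted p = 0.319), Mmp9 by -1.01 (adjusted p = 0.355) and Galnt15 by -1.58 (adjusted p = 0.302). Ncoa4 differed by -0.49 (adjusted p = 0.0777), Ldb3 by -1.53 (adjusted p = 0.0882) and Sh3bp5 by 0.73 (adjusted p = 0.136), and Duxbl2 had an adjusted p of 0.137. The part of this level in the other results was not tested beyond that fit.

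**Figure D4:**
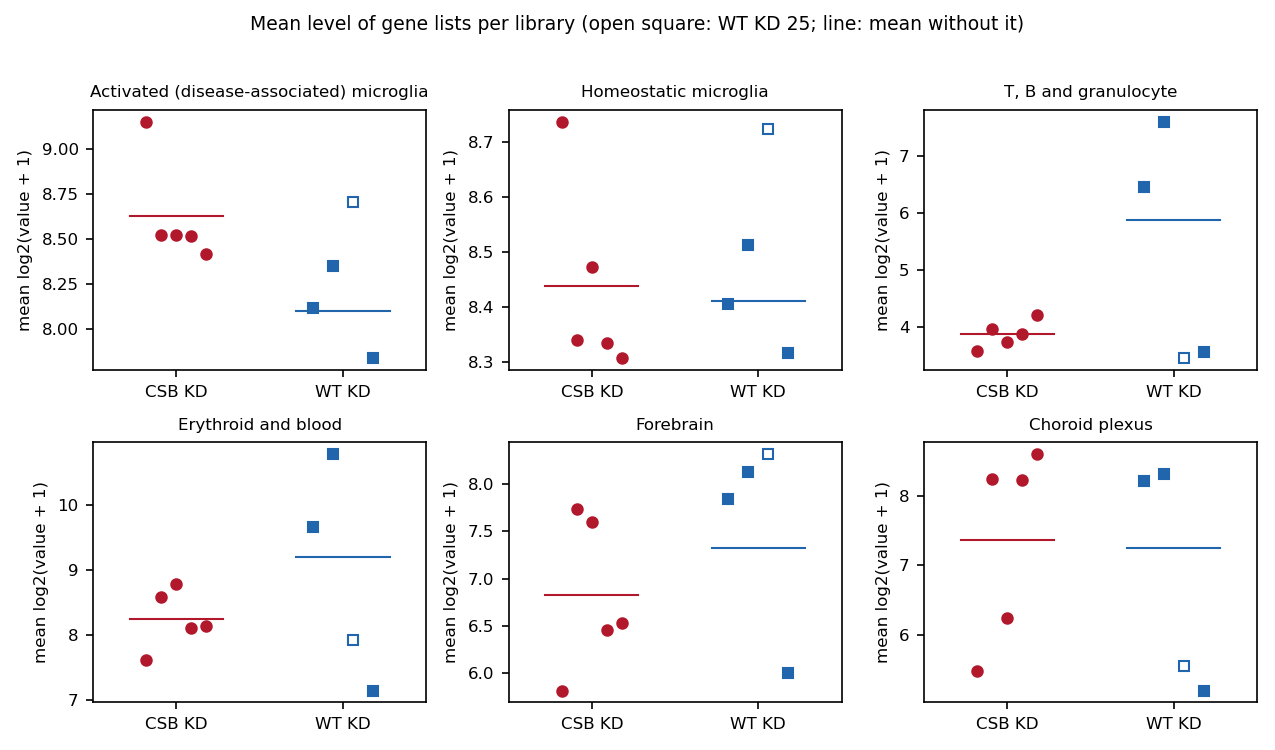
Mean log2(value + 1) over the tested genes of 6 lists (vertical axes) in 5 CSB KD (circles, left) and 4 WT KD libraries (squares, right). The open square is the library labelled WT KD 25 and each line is the mean of the filled points. The T, B and granulocyte level was 3.58 to 4.22 in CSB KD, against 6.46 and 7.60 in WT KD 7 and 12, 3.57 in WT KD 28 and 3.45 in the library labelled WT KD 25.

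Of the 7 genes that filled the lower direction below the threshold by smallest p, WT KD 7 and 12 were the highest 2 libraries in 6, against 4.25% of all genes, a count made after the values were seen. These 7 were picked for higher values in WT KD 7, 12 and 28, so the share over all genes is no measure for them. Retnlg, a resistin-like protein of neutrophils, read 2.19, 2.79, 0, 1.96 and 5.03 in CSB KD, against 93, 270.1 and 2.1 in WT KD 7, 12 and 28 and 1.06 in the library labelled WT KD 25 (log2 -3.87, adjusted p = 0.107, and -2.78 with all 9). Slfn4, a schlafen protein of myeloid cells, differed by -2.96 (SE 0.72), Ncf4, a subunit of the phagocyte NADPH oxidase, by -1.51 (SE 0.37), and Ctsk, the collagen-degrading cathepsin K, by -1.01 (SE 0.23), with adjusted p of 0.17, 0.168 and 0.102. Slc25a37, the mitochondrial iron importer mitoferrin 1 of erythroid cells, read 315, 449.6, 391, 438 and 431 in CSB KD, against 639, 873 and 459 in WT KD 7, 12 and 28 and 539 in the library labelled WT KD 25 (log2 -0.66, adjusted p = 0.129, and -0.60 with all 9). Lcn2 was another of the 6. Cd200r3, a receptor of myeloid cells, was different: it read 10.5, 17, 16, 16.3 and 27.6 in CSB KD, against 47.5, 41.1 and 47.3 in WT KD 7, 12 and 28 and 25 in the library labelled WT KD 25 (log2 -1.38, SE 0.31, adjusted p = 0.0983, and -1.18 with all 9), with the 3 WT KD libraries close together.

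Among genes with the smallest p in the higher direction, several were lower in WT KD than in the other groups examined. Sox9, a transcription factor of astrocytes and Bergmann glia, read 289, 359, 245, 461 and 463 in CSB KD, against 206, 231 and 93.9 in WT KD 7, 12 and 28 and 259 in the library labelled WT KD 25 (log2 1.09, SE 0.24, adjusted p = 0.0706, and 0.93 with all 9). It averaged 344 ± 50.7 in CSB SD (SD, n = 6) and 386 ± 149 in WT SD (n = 4), and 343 ± 33.5 in DKO KD (n = 5) and 397 ± 29.5 in INDY KD (n = 6), so WT KD stood below all of these. Tle3, a Groucho-type corepressor, differed by 0.83 (SE 0.22, adjusted p = 0.253) and averaged 826 ± 125 in CSB KD and 475 ± 70.8 in WT KD, against 673 ± 106 in CSB SD and 684 ± 218 in WT SD. Bag3, a co-chaperone of selective autophagy, read 216, 178, 175, 250.2 and 198 in CSB KD, against 93.6, 104 and 94 in WT KD 7, 12 and 28 and 137 in the library labelled WT KD 25 (log2 1.05, adjusted p = 0.129, and 0.93 with all 9). Its mean was 208 ± 60.4 in CSB SD and 179 ± 41.8 in WT SD. Pigt, a subunit of the enzyme that attaches GPI anchors, differed by 0.67 (SE 0.15, adjusted p = 0.0706), Rnf208, a RING finger protein, by 0.71 (SE 0.17), Tmem132e, a membrane protein of the nervous system, by 0.52 (SE 0.13) and Cpeb3, a regulator of mRNA translation, by 0.57 (SE 0.14). Xlr, an X-linked gene of lymphocytes and germ cells, read 43.3, 38.3, 38, 27.5 and 26 in CSB KD, against 10.7, 15.1 and 19.5 in WT KD 7, 12 and 28 and 37.1 in the library labelled WT KD 25 (log2 1.16, adjusted p = 0.0834, and 0.84 with all 9).

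Genes of DNA repair, the process in which CSB acts, showed small differences. Of 30 genes of nucleotide excision and transcription-coupled repair 19 were above 0 in both settings (median 0.04 without the library labelled WT KD 25 and 0.06 with it), 0 were called, and at an unadjusted p under 0.05 there were 1 higher and 2 lower in each. Apart from Ercc6, Rad23b, a partner of the damage sensor XPC, read 4092, 3332, 3593, 3686 and 3888 in CSB KD, against 4245, 4356 and 4165 in WT KD 7, 12 and 28 and 4001 in the library labelled WT KD 25 (log2 -0.20, SE 0.07, adjusted p = 0.589, and -0.18 with all 9). Polr2a, the large subunit of RNA polymerase II, differed by 0.65 (SE 0.21, adjusted p = 0.525) and Cul4a, a ubiquitin ligase scaffold of damage recognition, by -0.19 (SE 0.11). The 20 p53 targets had a median of 0.08 (0.10 with all 9) with 0 at an unadjusted p under 0.05, from -0.38 for the kinase Plk2 to 0.60 for the receptor Eda2r. For 23 PARP, sirtuin and NAD genes the median was 0.08 in both settings. Among them Nnt, the proton-driven transhydrogenase of mitochondria, read 30.1, 165, 247, 112 and 177 in CSB KD, against 392, 239.6 and 342 in WT KD 7, 12 and 28 and 127 in the library labelled WT KD 25 (log2 -1.40, SE 0.61, adjusted p = 0.66, and -1.07 with all 9), and the NAD synthesis enzymes Nampt and Nmnat2 differed by 0.15 (SE 0.10) and 0.01 (SE 0.08). The 24 genes of RNA polymerase I and ribosomal RNA processing had a median of 0.03 in both settings, with the nucleolar protein Ncl at -0.03 (SE 0.12).

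The genes that take up and burn ketone bodies differed little between the genotypes on this diet. Of 12, 8 were above 0 in both settings (median 0.11, and 0.13 with all 9) and 0 were called. Oxct1, the mitochondrial enzyme that activates acetoacetate, read 8068, 7185, 7397, 7995 and 7799 in CSB KD, against 6666, 6751 and 5729.9 in WT KD 7, 12 and 28 and 7142 in the library labelled WT KD 25 (log2 0.27, SE 0.11, adjusted p = 0.618, and 0.23 with all 9). CSB KD lay above all 4 WT KD values by a small margin. The monocarboxylate transporter Slc16a1 differed by 0.15 (SE 0.11), the thiolase Acat1 by 0.03 (SE 0.10) and the glycolytic cell transporter Slc16a3 by -0.50 (SE 0.39). Of 30 fatty acid oxidation and PPAR target genes 22 were above 0, and 21 with all 9 (median 0.11 in both settings). Fabp7, the fatty acid-binding protein of radial glia and astrocytes, read 574, 529, 518, 641 and 609 in CSB KD, against 442, 318 and 341 in WT KD 7, 12 and 28 and 521 in the library labelled WT KD 25 (log2 0.66, SE 0.17, adjusted p = 0.253, and 0.53 with all 9), and Angptl4, a PPAR-induced inhibitor of lipoprotein lipase, differed by -0.70 (SE 0.33).

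Other metabolic lists lay close to all genes. The 29 genes of the TCA cycle and citrate handling had a median of 0.05 (0.02 with all 9), with the dehydrogenase subunit Ogdh at 0.24 (SE 0.09). For 19 glycolysis genes it was 0.04 (-0.05 with all 9), with Gapdh at -0.33 (SE 0.15) and the brain aldolase Aldoc at 0.10 (SE 0.17). For 24 genes of cholesterol synthesis it was 0.01, with 13 above 0, and -0.06 with all 9, with 7 above 0. Hmgcs1, the cytosolic HMG-CoA synthase, stood at -0.16 (SE 0.21) and the sterol reductase Tm7sf2 at -0.76 (SE 0.36). The 13 mitochondrially encoded mRNAs had a median of 0.08 (-0.03 with all 9), and mt-Co1 differed by 0.03 (SE 0.12; -0.03 with all 9). Of 25 antioxidant genes 16 were above 0 in both settings (median 0.08, and 0.07 with all 9), with the peroxiredoxin Prdx6 at 0.29 (SE 0.15). The iron list of 15 genes had a median of 0.06 (0.09 with all 9) and, apart from Ncoa4, held 0 called, with transferrin (Trf) at 0.24 (SE 0.25), ferritin light chain Ftl1 at 0.18 (SE 0.11) and the iron sensor Ireb2 at 0.45 (SE 0.19). None of the genes named here besides Ncoa4 passed.

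Most clock genes had differences above 0. Of 20, 18 were above 0 in both settings (median 0.18 without the library labelled WT KD 25 and 0.22 with it), against 51.4% and 51% of all genes, and 0 were called. The other comparisons of the genotype had medians of the opposite sign, -0.12 in CSB SD against WT SD and -0.05 in DKO KD against INDY KD. Bhlhe41, a repressor of the clock, read 1000.5, 778, 750.2, 1055 and 1062 in CSB KD, against 679.9, 564 and 551 in WT KD 7, 12 and 28 and 747 in the library labelled WT KD 25 (log2 0.62, SE 0.17, adjusted p = 0.253, and 0.54 with all 9). All 5 CSB KD values exceeded all 4 WT KD values. The repressor Nr1d1 differed by 0.44 (SE 0.19), its relative Nr1d2 by 0.18 (SE 0.13) and the output factor Tef by 0.05 (SE 0.10). The labels give no hour of tissue collection. Of 18 heat shock genes 11 were above 0 in both settings (median 0.09, and 0.02 with all 9), with the chaperones Hspa8, Hsp90aa1 and Hsp90ab1 at -0.11, 0.11 and 0.09 and the small heat shock protein Hspb8 at 0.40 (SE 0.20).

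Nearly all genes of cerebellar neurons had differences above 0 without any passing, and their levels varied within both groups. Of 20 Purkinje cell genes 19 were above 0 in both settings (median 0.40 without the library labelled WT KD 25 and 0.46 with it). Of 18 granule cell genes 18 were above 0 without it (median 0.33) and 17 with it (median 0.53). At an unadjusted p under 0.05 there were 1 Purkinje and 0 granule cell genes in each setting. In CSB SD against WT SD the medians had the opposite sign, -0.41 for the Purkinje list and -0.37 for the granule list. In DKO KD against INDY KD they were 0.12 and 0.29. The mean log2 level of the Purkinje list was 11.71, 12.10, 11.77, 12.43 and 12.43 in CSB KD, against 11.73, 12.15 and 11.36 in WT KD 7, 12 and 28 and 11.21 in the library labelled WT KD 25. That of the granule list was 11.54, 11.25, 11.19, 11.57 and 11.60 in CSB KD, against 11.24, 11.46 and 10.65 in WT KD 7, 12 and 28 and 10.55 in the library labelled WT KD 25. WT KD 28 and the library labelled WT KD 25 were the lowest 2 of the 9 in both. Dner, a Notch ligand of Purkinje cells, read 4117, 6458, 5148, 8557 and 8305 in CSB KD, against 4143, 5234 and 3603 in WT KD 7, 12 and 28 and 3543 in the library labelled WT KD 25 (log2 0.55, SE 0.26, adjusted p = 0.685, and 0.62 with all 9). Calb1 differed by 0.45 (SE 0.41), carbonic anhydrase 8 (Car8) by 0.53 (SE 0.76), the IP3 receptor Itpr1 by 0.21 (SE 0.38) and the granule cell cerebellin Cbln3 by 0.35 (SE 0.91).

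RNA of neighbouring tissue varied within both groups. The forebrain list, whose genes mark cortex and striatum, had a level of 5.81, 7.74, 7.61, 6.46 and 6.53 in CSB KD, against 7.85, 8.13 and 6.00 in WT KD 7, 12 and 28 and 8.32 in the library labelled WT KD 25. In this level CSB KD 18 and 19 stood with WT KD 7 and 12 and the library labelled WT KD 25. Of 20 forebrain genes 5 were above 0 without the library labelled WT KD 25 and 6 with it (medians -0.45 and -0.78), with 0 called. Of 18 choroid plexus genes 11 were above 0 without it (median 0.17) and 16 with it (median 0.52). The choroid plexus level was 5.47, 8.24, 6.24, 8.22 and 8.60 in CSB KD, against 8.21, 8.31 and 5.20 in WT KD 7, 12 and 28 and 5.55 in the library labelled WT KD 25, and Ttr, the transthyretin made by that epithelium, read 23.9 to 15648 in CSB KD and 77 to 14852 in WT KD. High and low libraries stood in both groups. Myelin genes had a median of 0.13 over 20 (0.05 with all 9), with Mbp, myelin basic protein, at 0.18 (SE 0.30) and Pdgfra, the receptor of oligodendrocyte precursors, at -0.39 (SE 0.22). Of 16 endothelial and pericyte genes 8 were above 0, and 11 with all 9, with Flt1, a VEGF receptor, at 0.07 (SE 0.15). Liver genes had a median of 0.47 over 20 (0.57 with all 9), with albumin (Alb) at 8.95 to 504 in CSB KD and 2 to 225 in WT KD, and 0 called. With the choroid plexus level as a covariate, chosen after seeing the data, 22 genes were called without the library labelled WT KD 25, all 10 among them. With the forebrain level, 10 were called, the same genes.

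**Figure D5:**
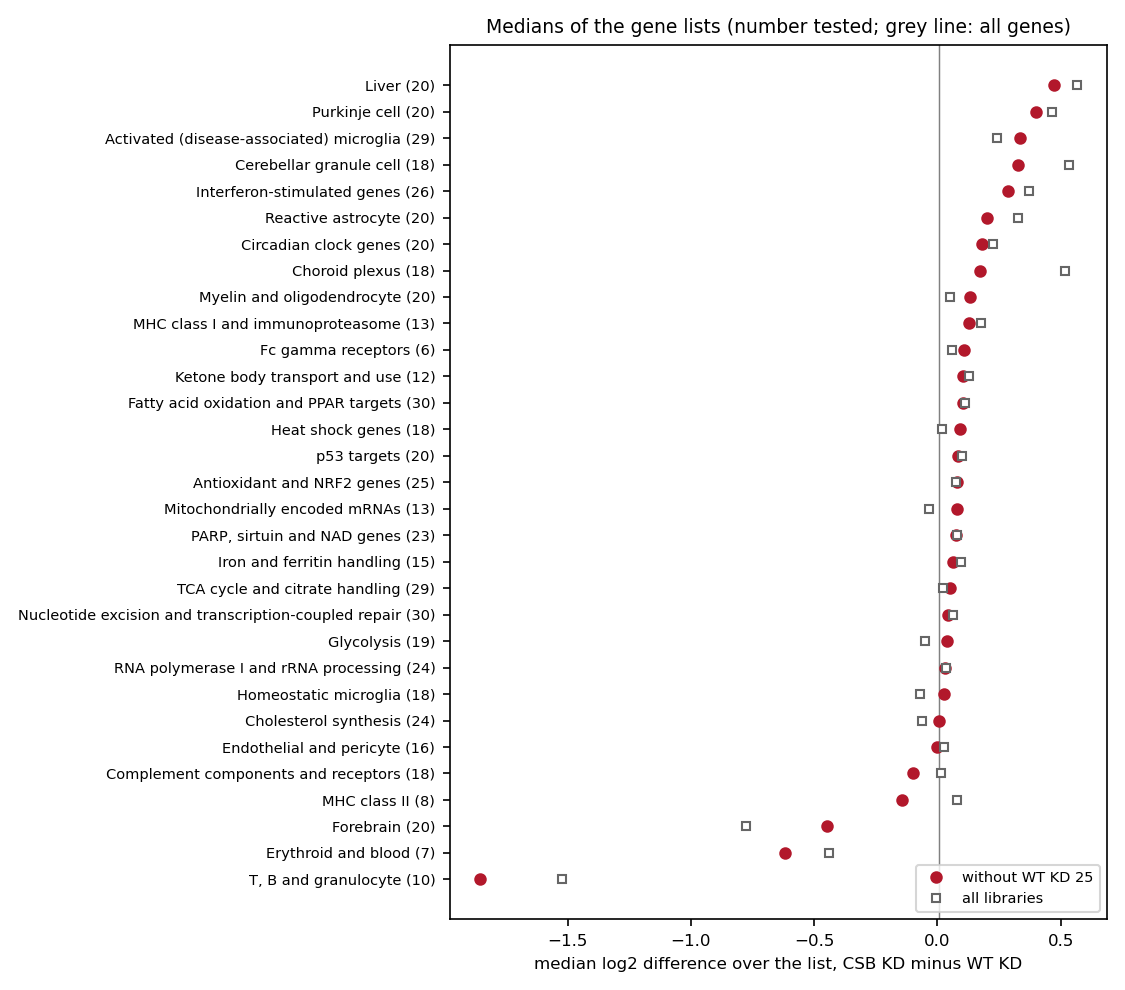
Median log2 difference, CSB KD minus WT KD (horizontal axis), of 31 gene lists with the number of tested genes in brackets, without the library labelled WT KD 25 (filled) and with all 9 libraries (open squares). The grey line is the median of all tested genes, 0.01. Medians without that library run from -1.86 for T, B and granulocyte genes to 0.47 for liver genes.

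Whether the CSB effect on KD differed from that on SD was tested as the difference of the 2 differences. With all libraries 0 of 21367 genes were called by limma (0%), and 1369 (6.41%) had an unadjusted p under 0.05. Without the library labelled WT KD 25 these were 0 and 946 (4.43%). With all libraries the smallest p were those of Itgb2, a leukocyte integrin, Slpi, an inhibitor of neutrophil elastase, and Csf3r, the receptor of granulocyte colony-stimulating factor. Itgb2 averaged 151 ± 36 in CSB KD and 195 ± 95.8 in WT KD, against 203 ± 55.4 in CSB SD and 79.5 ± 12 in WT SD. Its difference of differences was -1.59 (SE 0.36, unadjusted p = 8.21e-05, adjusted p = 0.76). Those of Slpi and Csf3r were -3.18 (SE 0.77) and -1.55 (SE 0.38). Without the library labelled WT KD 25 the smallest p were those of Ly6c2, Mmp9 and Cd300ld, with differences of -3.25, -2.55 and -2.55 (adjusted p = 0.35, 0.41 and 0.422). Slpi read 5.2, 2.44, 5.03, 1.05 and 4.15 in CSB KD, against 26.7, 36.2 and 2.91 in WT KD 7, 12 and 28 and 20.3 in the library labelled WT KD 25, and 1.07 to 15.1 in CSB SD and 0 to 3.47 in WT SD.

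For the activated microglia list the median difference of differences, KD minus SD, was -0.58 with all 9 libraries and -0.35 without the library labelled WT KD 25, with 0 called. Without that library 7 of the 29 members were lower at an unadjusted p under 0.05 and 0 were higher. Over all 21367 genes 505 were lower and 441 higher at such a p. The median CSB effect was 0.33 on KD without that library and 1.08 on SD. There 11 members were called in the fit of all libraries, against 0.136% of all genes. Itgax averaged 102 ± 49.4 in CSB KD and 145 ± 47.1 in CSB SD, and its difference of differences was -0.35 (SE 0.51, adjusted p = 0.987) without the library labelled WT KD 25. For Cst7 it was -0.82 (SE 0.59) and for Gpnmb -0.40 (SE 0.50). None of the 3 passed, which does not show that the effects were of equal size. Ly6c2 and Mmp9 lay the other way on SD: Mmp9 averaged 52.8 ± 19.3 in CSB SD and 35.8 ± 6.85 in WT SD, a log2 difference of 0.47, and Ly6c2 27.7 ± 10.3 in CSB SD and 18 ± 11.3 in WT SD, a difference of 0.67.

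DKO KD against INDY KD gave a second comparison on the same diet with no library in common. The difference of the 2 CSB effects called 0 genes by limma (0%), and 981 (4.59%) had an unadjusted p under 0.05, or 916 (4.29%) without the library labelled WT KD 25. In both settings the smallest p belonged to Ifi202b, Ptpn18 and Gm29216, of which Ptpn18, a tyrosine phosphatase, averaged 34.2 ± 19 in CSB KD and 60.7 ± 18.4 in WT KD, against 66.3 ± 17.1 in DKO KD and 26.8 ± 18.9 in INDY KD. Of the 10 genes called without the library labelled WT KD 25, 8 had the same sign in CSB SD against WT SD and 8 in DKO KD against INDY KD. The exceptions were Ly6c2 and Mmp9 in both. The share of all genes with the same sign is not given here, so these counts describe the 10 genes only. With all libraries in the fit, 4 of the 10 were called in each of these comparisons. The shares over all genes were 0.136% on SD and 0.0983% in DKO KD against INDY KD. Without the library labelled WT KD 25, Galnt15 also passed (limma, adjusted p = 0.03 on SD and 0.0196 in DKO KD against INDY KD). Gm49012 then passed in DKO KD against INDY KD (adjusted p = 0.00885). The activated microglia list had a median of 0.83 in DKO KD against INDY KD, with 8 called in the fit of all libraries. The median difference from the effect in CSB KD was -0.28 without the library labelled WT KD 25. Galnt15 averaged 233 ± 106 in DKO KD and 780.3 ± 302 in INDY KD (log2 -1.74), and Ldb3 73 ± 12.1 in DKO KD and 155 ± 55.7 in INDY KD. Sh3bp5 averaged 1387 ± 202 in DKO KD and 906 ± 121 in INDY KD (log2 0.61, adjusted p = 0.0175 with all libraries), close to its 1415 ± 84 in CSB KD and 977 ± 201 in WT KD. The count of this difference test was 3 without CSB KD 13, 2 without DKO KD 3, and 1 without WT KD 28 or without INDY KD 22.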

How the data were processed

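The deposited table holds 1 value per gene and library for 54331 gene IDs. It is a normalised signal, read counts per gene that the authors scaled between libraries. Bowtie2, Salmon, DESeq2 and the build mm9 are named, per the submitters' processing notes, which give no versions, roles or order. Libraries came from total RNA depleted of ribosomal RNA, sequenced on DNBseq, per the labels' protocols. The values are not whole counts and the reads behind them are not known, so no counting interval is given. The number of libraries limits the precision.

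Gene names and coordinates came from GENCODE M21 on GRCm38, with 54097 IDs matched when version numbers were left out. That build differs from the one in the notes, so coordinates only say where a named gene lies. Near-identical transcripts were found with minimap2 2.31-r1302.

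Values were taken as log2(value + 1), and 21367 genes with a value of 10 or more in 4 or more of the 40 libraries were tested with limma 3.58.1 in R 4.3.3. All 8 groups shared 1 fit with a mean-variance trend and robust variances, and p-values were two-sided with Benjamini-Hochberg adjustment over all tested genes. Fold changes are on the log2(value + 1) scale, which understates those of low genes. Sums of related genes were compared by exact permutation of the libraries. Smallest possible p-values were 0.00794 for 5 against 4 libraries and 0.0179 for 5 against 3. Simulated data with planted changes served to test the script.

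The library labelled WT KD 25 stayed in its labelled group and was then left out. The members and gene lists were chosen with earlier results of these data known, and several lists were drawn up after such results. Genes named singly were Ercc6, Slc13a5, Ncoa4 and Gm6768, the genes called in either setting, below the threshold up to 12 per direction with the smallest p and a mean of 20 or more, and of each list the 3 members with the highest mean and the 2 with the largest difference. For the tests of a difference they were the 3 with the smallest p. Further list members were picked with their values in view. Alternatives varied the pseudocount, the filter, the scaling, the groups fitted, the weights of libraries, a tissue level or surrogate variable as covariate, the variance model and each library left out. Figures were drawn with matplotlib 3.10.9.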

Additional observations from a re-analysis of the deposited data

Results flagged for a closer look

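In 8 of 120 sets of 4 to 5 libraries examined, 1 library stood apart by Dixon's test, where chance flags about 1 in 20, or 6. In CSB KD 18 Slc13a5 read 93.2, against 134.6 to 155 in the other CSB KD libraries. In CSB KD 19 Ercc6 read 382, against 596 to 695 in the others. The library labelled WT KD 25 stood apart in 2 genes: Gm6768 read 1041, against 0 in the other WT KD libraries, and Duxbl2 read 3.50, against 31.9 to 44.2.

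Library CSB KD 13 stood apart in 4 list levels. Its mean log2 level of activated microglia genes was 9.15, against 8.42 to 8.53 in the other CSB KD libraries. For nucleotide excision and transcription-coupled repair it was 9.48, where the others had 9.34 to 9.37. The level of mitochondrially encoded mRNAs was 14.9, where the others had 14.2 to 14.4. Its endothelial and pericyte level was the lowest, at 8.59, against 8.91 to 9.04. Without this library Itgax was no longer called (adjusted p = 0.0684), and the number of called genes without the library labelled WT KD 25 was 4.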

How the results depend on the processing

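With all 9 libraries, where 1 gene was called, the count was 4 with no filter on low values, 0 when the 2 groups were fitted alone, 90 with a weight per library, 2 with the choroid plexus level and 3 with the T, B and granulocyte level as covariate, and 1 to 10 with 1 library left out. Without the library labelled WT KD 25, where 10 were called, it was 65, 1, 1906, 22 and 5 under those alternatives, 16 with 1 surrogate variable, and 3 to 116 with 1 further library left out. For the difference by diet it was 3 with weights per library and 0 with any library left out. For the difference by genetic background it was 1 with a pseudocount of 5, 1 with no filter, 15 with weights, 1 with the choroid plexus level and 0 to 3 with 1 library left out. The causes were not tested. Both covariates were chosen after seeing the data. The log2 difference of the Ncoa4 and Gm6768 sum ran from -0.0553 to 0.0333 with 1 library left out and turned positive without CSB KD 18 (0.0157), CSB KD 44 (0.0137) or WT KD 12 (0.0333). Alternatives were run for 29 of the genes named, the called ones, those below the threshold and Ercc6 and Slc13a5, and none of these changed sign. Other list members were compared only with and without the library labelled WT KD 25. Of the values of the 29 under alternatives with all 9 libraries, 554 kept their side of the threshold, 29 newly passed and 1 no longer passed; without the library labelled WT KD 25 these were 478, 45 and 53. No paired analysis was possible because the library numbers differ between all groups. Read depth is unknown, so low genes such as Duxbl2 and Gm49012 have an unknown counting error.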
